A study of Mus musculus with 16 samples.

Results

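Long noncoding RNAs were followed in smooth muscle cells cultured from the aortas of mice: Gas5, the host RNAs of small nucleolar RNAs (snoRNAs) Snhg1, Snhg3, Snhg5, Snhg8 and Snhg12, and the nuclear RNAs Malat1 and Neat1. They are the rows of the deposited table that carry these 8 symbols, 8 of 20581 genes, and all 8 passed the filter on low values that 14217 genes passed. KO cells came from C57BL/6J mice of the genotype RBC.ARG1-KO, in which floxed Arg1 is removed by a Cre recombinase driven by the erythropoietin receptor gene, so that the red blood cell lineage and not the smooth muscle cell is the intended site of loss. WT cells came from RBC.ARG1-WT littermates. DIAM is Dulbecco's modified Eagle medium (DMEM) with a synthetic glucocorticoid, dexamethasone, at 0.1 µM, with insulin at 1 µM and with L-ascorbic acid at 50 µg/mL, given for 10 days to load the cells with lipid. The control was DMEM with 10% fetal bovine serum, and the labels do not say if serum was part of DIAM. There were 4 libraries each of KO cells in DIAM, WT cells in DIAM, KO cells in DMEM and WT cells in DMEM. The labels' texts speak both of 4 biological replicates and of triplicates and do not tie a library to a mouse, so the p-values measure the spread between these libraries, which may be partly technical.

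A snoRNA host gene carries snoRNAs inside its introns: splicing releases them to guide the modification of ribosomal and other RNAs, and the spliced host RNA is left over. Gas5, first known from growth-arrested mouse cells, is such a host. Several of these host RNAs start with a run of pyrimidines, the mark of the 5′ terminal oligopyrimidine (5′TOP) class to which ribosomal protein genes belong, and are degraded by nonsense-mediated decay when they are translated, so that their amount is known to depend on growth and translation. In human cells Gas5 is known to bind the DNA-binding part of the glucocorticoid receptor through a stem that resembles the receptor's DNA site, and it was proposed to act as a decoy for that receptor. Malat1 is an abundant RNA of nuclear speckles, which hold splicing factors, and Neat1 is the scaffold of paraspeckles, nuclear bodies built with RNA-binding proteins.

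The starts of the host genes are shown because a pyrimidine run there is a mark of the 5′TOP class. RefSeq promoter windows (GRCm38.p6, 250 bases before to 50 after the annotated start, 5′ to 3′ on the gene's strand) were found for 7 of the 8 RNAs, 8 windows in all. Capitals mark the unbroken run of C and T from the annotated start. C and T were counted alike at the first base, which is T in Snhg12. A run counted here therefore does not by itself place a gene in the 5′TOP class. The windows lie at chr1:161034916-161035215 (plus strand, Gas5, the second of its 2 windows), chr4:132308428-132308727 (plus strand, Snhg12), chr3:123508287-123508586 (minus strand, Snhg8) and chr19:8723237-8723536 (plus strand, Snhg1).
Gas5: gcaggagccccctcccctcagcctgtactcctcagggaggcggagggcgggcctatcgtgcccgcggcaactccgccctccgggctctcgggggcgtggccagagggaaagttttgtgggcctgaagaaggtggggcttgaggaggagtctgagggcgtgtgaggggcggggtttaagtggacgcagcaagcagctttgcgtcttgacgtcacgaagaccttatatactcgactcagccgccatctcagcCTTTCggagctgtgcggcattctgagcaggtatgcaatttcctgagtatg
Snhg12: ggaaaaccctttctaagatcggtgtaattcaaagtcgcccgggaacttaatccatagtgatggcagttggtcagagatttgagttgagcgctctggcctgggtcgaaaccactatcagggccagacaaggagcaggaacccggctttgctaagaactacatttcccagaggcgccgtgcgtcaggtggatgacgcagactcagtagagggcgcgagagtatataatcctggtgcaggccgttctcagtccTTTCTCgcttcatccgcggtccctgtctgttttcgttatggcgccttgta
Snhg8: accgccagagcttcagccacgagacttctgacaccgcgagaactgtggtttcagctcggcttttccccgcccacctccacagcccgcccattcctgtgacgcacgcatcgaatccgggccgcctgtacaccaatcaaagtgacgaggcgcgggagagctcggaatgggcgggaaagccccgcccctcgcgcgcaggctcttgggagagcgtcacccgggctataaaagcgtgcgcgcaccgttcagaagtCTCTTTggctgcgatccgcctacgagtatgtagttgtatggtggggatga
Snhg1: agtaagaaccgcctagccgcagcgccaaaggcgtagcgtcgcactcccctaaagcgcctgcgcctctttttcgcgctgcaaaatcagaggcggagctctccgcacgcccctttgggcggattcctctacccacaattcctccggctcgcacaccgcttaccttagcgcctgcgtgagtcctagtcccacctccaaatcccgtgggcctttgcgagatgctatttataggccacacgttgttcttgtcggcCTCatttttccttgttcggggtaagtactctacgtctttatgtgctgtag
The run was 5 bases long in Gas5, 6 in Snhg12, 6 in Snhg8 and 3 in Snhg1. A run of 4 or more bases stood at the start of 3 of the 8 windows, and of 2254 of all 32851 windows (6.86%). The other Gas5 window, Snhg3 and Snhg5 had no C or T at the annotated start and Malat1 had a run of 1 base, so the run is not shared by all the hosts as annotated. The full palindromic glucocorticoid receptor motif, AGAACA and TGTTCT with any 3 bases between them, was in 0 of the 8 windows and in 3 of all windows (0.00913%). Its arm alone, AGAACA or TGTTCT on either strand, was in the Snhg1 window, at position -13 counted from the annotated start, and in 19% of all windows. The letters TATAAA, also searched on both strands, were in 4 of the 8 windows, in those of Snhg1, Snhg3, Snhg5 and Snhg8, and in 13.6% of all windows. The annotation used for the transcripts and neighbours (GENCODE M21, also GRCm38) is older than the GRCm39 build named in the submitters' processing notes. Within it Gas5 spans 10 entries annotated as snoRNA, Snhg1 8, Snhg12 5, Snhg3 2, Snhg5 2 and Snhg8 1, while Malat1 and Neat1 span 0. None of the 5 Gas5 transcripts annotated there as lincRNA contained AGAACA or TGTTCT, 5 of the 20 annotated as retained introns contained one of them, and the full palindrome was in 0 of either kind. The search read unfolded sequence for exact letters, so it cannot show whether Gas5 RNA forms a stem that resembles the receptor's DNA site.

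Each library held between about 37221200 and 47626300 estimated counts. Levels are CPM, counts relative to the library total, after trimmed-mean (TMM) scaling, and they are not compared between genes, since transcript lengths differ. Smooth muscle markers were present in every group, with Acta2, a contractile actin, at 845 ± 227 CPM in KO cells in DIAM, 772 ± 167 CPM in WT cells in DIAM, 1799 ± 541 CPM in KO cells in DMEM and 1960 ± 247 CPM in WT cells in DMEM (SD, n = 4 each). Fibroblast markers were present too, 8 genes summing to means of 19674, 17565, 11668 and 12011 CPM in these groups in the same order. The share of smooth muscle cells in the cultures was not tested. Arg1 itself was at or below 1.17 CPM in all 16 libraries, and as the intended deletion is in another cell type it does not check the genotype labels. All libraries are labelled male, yet Xist, the RNA that coats the inactive X chromosome in female cells, was between 102 and 326 CPM in all 16. On the second principal component, which held 6.85% of the variance, KO library 1 in DIAM lay at one end and WT libraries 1 and 2 in DIAM at the other, apart from the other DIAM libraries. Genotype calls in DIAM are also given without single DIAM libraries. Of a list of 5 sex-linked genes, Xist and the Y-linked Ddx3y, Uty, Kdm5d and Eif2s3y, only Xist has a row in the deposited table. Every gene in that table was above 0 in at least 9 libraries. Levels of the Y-linked genes therefore cannot be read from it, and the sex of the cells was not tested. The library kit is labelled unstranded, so reads from the bases that Gas5 shares with Zbtb37 on the opposite strand cannot be assigned by strand, and exons shared by Snhg3 and Rcc1 on the same strand are split between them only by estimate.

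**Figure D1:**
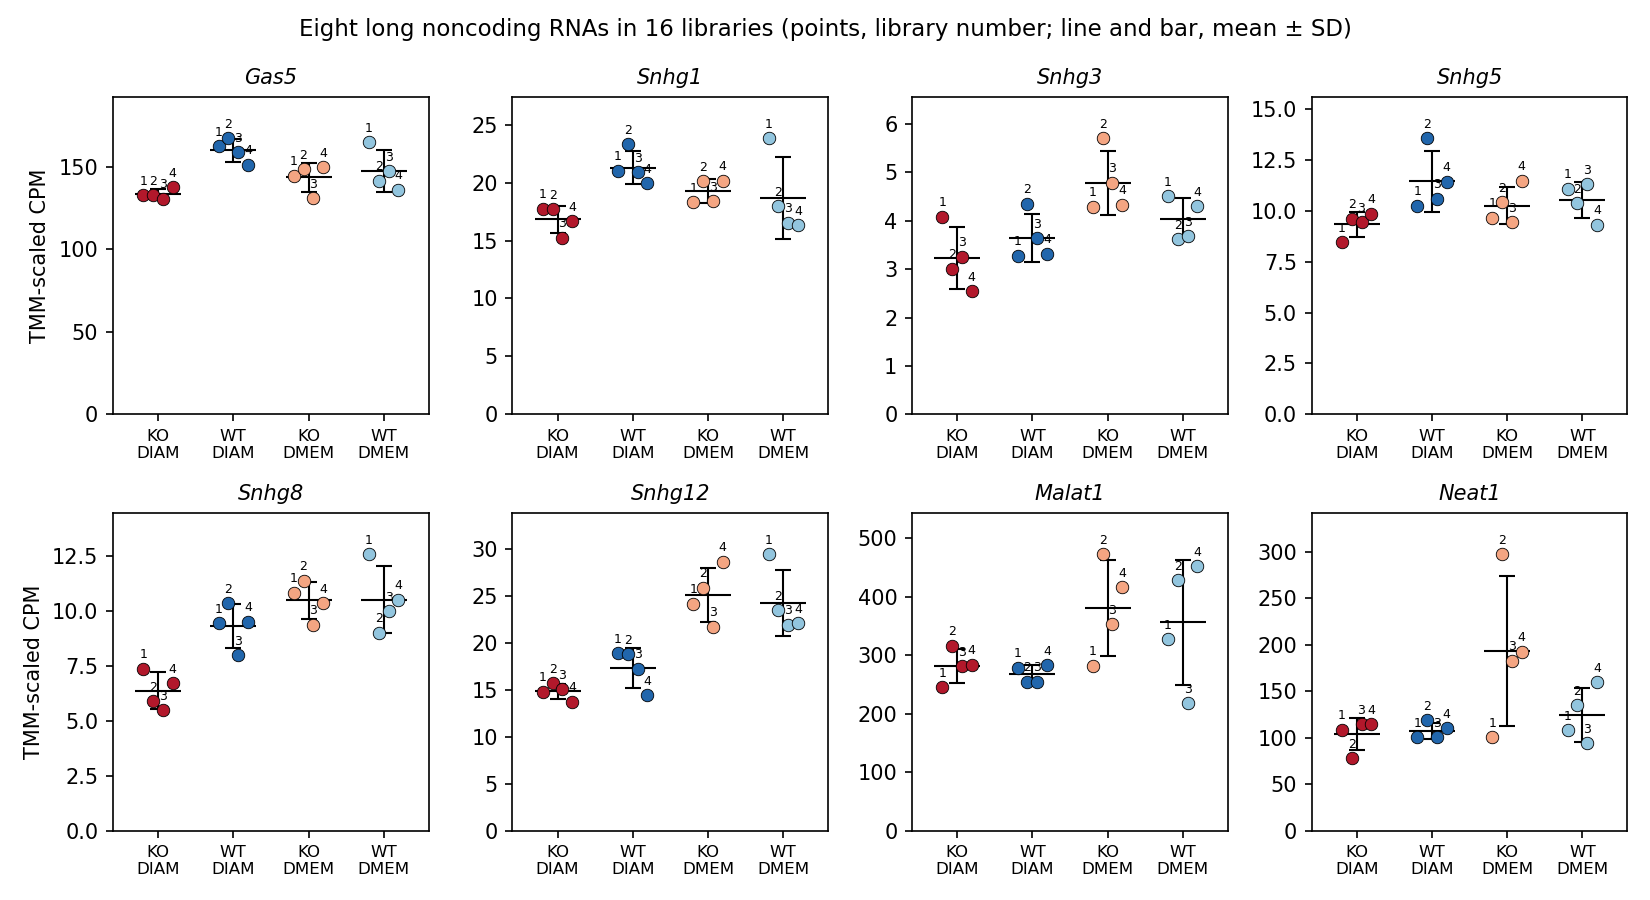
TMM-scaled CPM (vertical axis, from 0) of the 8 RNAs in each library, by group (horizontal axis: KO DIAM, WT DIAM, KO DMEM, WT DMEM). Points carry the library number, and the line and bar are the mean ± SD of 4 libraries. Gas5 libraries of KO cells in DIAM lie at 131 to 137 CPM, below all WT libraries in DIAM at 151 to 167 CPM, while Neat1 in KO cells in DMEM spreads from 101 to 297 CPM.

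The first comparison asked which of these RNAs respond to the lipid-loading medium in KO cells. Snhg12, Snhg8, Snhg3 and Neat1 fell in DIAM, 4 of the 8, and none rose. In the same comparison 60.7% of all tested genes changed at an adjusted p under 0.05, 30.8% falling and 29.8% rising, so a change in 4 of 8 is not above the background share. The median log2 fold change of the 8 RNAs was -0.50, against -0.02 over all tested genes. The fitted log2 fold change was below 0 for all 8.

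Snhg12, whose introns hold Snora44, Snora61, Snora16a and Snord99, had 14.8, 15.7, 15.1 and 13.7 CPM in KO cells in DIAM, against 24.1, 25.8, 21.7 and 28.6 CPM in KO cells in DMEM. The 2 groups did not overlap, and every DIAM library lay below the lowest DMEM library. The log2 fold change was -0.76 ± 0.11 (SE), with a 95% interval of -0.99 to -0.53 and an adjusted p of 1.94e-05 (edgeR quasi-likelihood test, as for all adjusted p below). Snhg8, the host of Snora24, had 7.37, 5.91, 5.48 and 6.70 CPM in KO cells in DIAM, against 10.8, 11.4, 9.38 and 10.4 CPM in KO cells in DMEM. These groups did not overlap either, and the log2 fold change was -0.72 ± 0.12 (adjusted p = 7.48e-05). Snhg3, the host of Snora73a and Snora73b, which take part in the processing of ribosomal RNA, is the lowest-counted of the 8 with 97.5 to 221 estimated counts per library over the KO groups. It had 4.09, 3.01, 3.26 and 2.55 CPM in KO cells in DIAM, against 4.30, 5.71, 4.79 and 4.33 CPM in KO cells in DMEM. The groups touched without overlapping: the highest DIAM library, number 1, was just under the lowest DMEM library. The log2 fold change was -0.57 ± 0.15 (adjusted p = 0.00479). Rcc1, a chromatin-bound exchange factor of the Ran GTPase that shares its locus with Snhg3, also fell, by 0.52 on the log2 scale (SE 0.09, adjusted p = 0.000198), at 8.94 ± 1.04 CPM in KO cells in DIAM and 12.8 ± 0.815 CPM in KO cells in DMEM (SD, n = 4 each), and by 0.23 in WT cells (adjusted p = 0.0472). How far the Snhg3 value carries reads of Rcc1 was not tested.

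The other host RNAs of the 8 did not pass the test in KO cells. Gas5 had 133, 133, 131 and 137 CPM in KO cells in DIAM, against 145, 149, 131 and 150 CPM in KO cells in DMEM. Library 3 in DMEM lay among the DIAM libraries, and the log2 fold change was -0.11 ± 0.06 (interval -0.23 to 0.02, adjusted p = 0.135). Without that library the adjusted p was 0.0472 and the log2 fold change -0.15. Snhg1, a host of box C/D snoRNAs such as Snord22, had 17.7, 17.7, 15.3 and 16.7 CPM in KO cells in DIAM, against 18.3, 20.1, 18.4 and 20.2 CPM in KO cells in DMEM. The groups did not overlap. DIAM below DMEM with no overlap was seen for 4 of the 8 in KO cells and for 27.8% of all tested genes. The log2 fold change of -0.19 ± 0.10 did not pass the test (adjusted p = 0.120). Without WT library 1 in DMEM, which is in neither group but shares the model, it did (adjusted p = 0.0246). Snhg5, the host of Snord50a and Snord50b, ranged over 8.46 to 9.87 CPM in KO cells in DIAM and 9.45 to 11.5 CPM in KO cells in DMEM, with a log2 fold change of -0.13 ± 0.10 (adjusted p = 0.258).

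Neat1 and Malat1 varied most among the libraries in DMEM. Neat1 had 108, 77.9, 114 and 114 CPM in KO cells in DIAM, against 101, 297, 183 and 192 CPM in KO cells in DMEM. DMEM library 1 was as low as the DIAM libraries and library 2 stood far above the rest, so the groups overlapped. The log2 fold change was -0.90 ± 0.25 (interval -1.43 to -0.36, adjusted p = 0.00628). Without DMEM library 2 it was -0.61 (adjusted p = 0.0256), and without DIAM library 2 it was -0.78 (adjusted p = 0.0233). Malat1 had 246, 316, 281 and 284 CPM in KO cells in DIAM, against 282, 473, 353 and 416 CPM in KO cells in DMEM. The groups overlapped at DMEM library 1, and the log2 fold change of -0.44 ± 0.19 missed the threshold (adjusted p = 0.0597), and it passed with KO library 1 (0.0222), WT library 3 (0.0132) or WT library 4 (0.0482), each in DMEM, left out.

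In WT cells the question was the same, and Snhg12 was the only one of the 8 that fell, with none that rose. Of all tested genes 55.1% changed in this comparison, 27.5% falling and 27.6% rising, so 1 of 8 lies below the background share. The median log2 fold change of the 8 was -0.16, against -0.01 over all tested genes. Snhg12 had 18.9, 18.7, 17.2 and 14.4 CPM in WT cells in DIAM, against 29.4, 23.5, 21.9 and 22.1 CPM in WT cells in DMEM. The groups did not overlap, which held with DIAM below DMEM for 1 of the 8 and for 24.7% of all tested genes, and the log2 fold change was -0.48 ± 0.11 (interval -0.72 to -0.25, adjusted p = 0.00136).

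Snhg8 had 9.44, 10.4, 7.98 and 9.51 CPM in WT cells in DIAM, against 12.6, 9.02, 9.99 and 10.5 CPM in WT cells in DMEM, which overlap. Its log2 fold change was -0.18 ± 0.12 (adjusted p = 0.220). Gas5 had 162, 167, 159 and 151 CPM in WT cells in DIAM, against 165, 142, 147 and 136 CPM in WT cells in DMEM, and Snhg1 had 21.0, 23.3, 20.9 and 19.9 CPM in WT cells in DIAM, against 23.9, 18.0, 16.5 and 16.3 CPM in WT cells in DMEM. For both RNAs WT library 1 in DMEM was at the level of the DIAM libraries or above it, and the other 3 DMEM libraries were below every DIAM library. Their log2 fold changes were 0.12 ± 0.06 (adjusted p = 0.106) for Gas5 and 0.19 ± 0.10 (adjusted p = 0.128) for Snhg1. Without WT library 1 in DMEM both would count as risen, Gas5 by 0.18 (adjusted p = 0.00879) and Snhg1 by 0.34 (adjusted p = 0.00141).

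Snhg3 ranged over 3.28 to 4.36 CPM in WT cells in DIAM and 3.62 to 4.51 CPM in WT cells in DMEM (log2 fold change -0.14 ± 0.15, adjusted p = 0.461). Snhg5 ranged over 10.3 to 13.6 CPM in WT cells in DIAM and 9.33 to 11.3 CPM in WT cells in DMEM (log2 fold change 0.12 ± 0.10, adjusted p = 0.305). Neither moved beyond its spread. Malat1 had 279, 255, 254 and 282 CPM in WT cells in DIAM, against 327, 428, 218 and 452 CPM in WT cells in DMEM. DMEM library 3 was below all DIAM libraries, and the log2 fold change was -0.41 ± 0.19 (adjusted p = 0.0779), or -0.59 (adjusted p = 0.00339) without that library. Neat1 had 100, 118, 101 and 110 CPM in WT cells in DIAM, against 108, 135, 94.1 and 160 CPM in WT cells in DMEM, with a log2 fold change of -0.21 ± 0.25 (adjusted p = 0.502).

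Between genotypes, KO against WT in DIAM asked whether loss of Arg1 in the red blood cell lineage goes with a difference in the loaded cells. Gas5 and Snhg8 were lower in KO cells, 2 of the 8, and none was higher. In this comparison 8.38% of all tested genes changed, 4.95% being lower and 3.43% higher in KO cells. The median log2 fold change was -0.24 over the 8 and 0.00 over all tested genes, and it was below 0 for each of the 6 snoRNA hosts.

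Gas5 averaged 133 ± 2.86 CPM in KO cells in DIAM and 160 ± 6.88 CPM in WT cells in DIAM (SD, n = 4 each). All KO libraries lay below all WT libraries, whose lowest value was 151 CPM. The log2 fold change was -0.26 ± 0.06 (interval -0.39 to -0.14, adjusted p = 0.0185). Snhg8 averaged 6.36 ± 0.842 CPM in KO cells in DIAM and 9.32 ± 0.984 CPM in WT cells in DIAM, with no overlap, and the log2 fold change was -0.55 ± 0.12 (interval -0.80 to -0.30, adjusted p = 0.0164). Snhg1 and Snhg5 also had no overlap between the genotypes, at 16.8 ± 1.16 CPM in KO cells and 21.3 ± 1.44 CPM in WT cells for Snhg1, and 9.35 ± 0.621 CPM in KO cells and 11.5 ± 1.5 CPM in WT cells for Snhg5. Their log2 fold changes of -0.34 ± 0.10 and -0.30 ± 0.10 missed the threshold (adjusted p = 0.0541 for Snhg1 and 0.0761 for Snhg5). Groups with KO below WT and no overlap were thus seen for 4 of the 8, and for 9.05% of all tested genes.

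These calls rest on few libraries. The adjusted p of Gas5 was above 0.05 without KO library 1 in DIAM (0.0553), without KO library 2 (0.0633), without WT library 1 (0.0661) and without WT library 2 (0.0755), and that of Snhg8 without KO library 2 (0.0632), WT library 1 (0.0531) or WT library 2 (0.0626), while the log2 fold changes stayed at -0.29 to -0.23 for Gas5 and -0.63 to -0.49 for Snhg8 over all libraries left out in turn. In a model of only these 2 groups neither passed (adjusted p = 0.0655 for each), as no gene did. In the authors' deposited table the adjusted p was 5.3e-05 for Gas5, 0.00208 for Snhg8 and 0.00391 for Snhg1, with log2 fold changes of -0.26, -0.55 and -0.33. Snhg12 (-0.22 ± 0.11, adjusted p = 0.219), Snhg3 (-0.18 ± 0.16, 0.509), Malat1 (0.07 ± 0.19, 0.849) and Neat1 (-0.05 ± 0.25, 0.929) were not called. The interval for Malat1 ran from -0.33 to 0.48 and that for Neat1 from -0.58 to 0.48, so changes within these bounds are not excluded.

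Markers of other cells moved along with genotype in DIAM. The 7 Schwann or glial markers, such as Sox10, summed to 27.4 to 166 CPM in KO libraries in DIAM and 282 to 702 CPM in WT libraries in DIAM, 0 of 7 being at 0 in either group. In the test 0 of the 6 measured above the filter were called. The 8 cell cycle markers summed to 97.1 to 107 CPM in KO libraries in DIAM and 114 to 152 CPM in WT libraries in DIAM, and 7 of them were lower in KO cells, among them Plk1, a mitotic kinase, by a log2 fold change of -0.85 (adjusted p = 0.00906). With each DIAM library left out in turn 2 to 7 of them were called, 2 without KO library 1, KO library 2 or WT library 2, 3 without WT library 1, and Plk1 each time. Their part in the Gas5 and Snhg8 differences was not tested. In bulk RNA, fewer cells of a type and less of the RNA in each cell cannot be told apart.

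In DMEM none of the 8 differed between KO and WT cells, nor did any of the 14217 tested genes (0% called). At an unadjusted p under 0.05 there were 438 genes (3.08%), 1 of them from the 8, and DESeq2 called 1 gene, none of the 8. Gas5 averaged 143 ± 8.67 CPM in KO cells in DMEM and 147 ± 12.5 CPM in WT cells in DMEM, with an interval of -0.17 to 0.09 for the log2 fold change. Snhg8 averaged 10.5 ± 0.849 CPM in KO cells in DMEM and 10.5 ± 1.51 CPM in WT cells in DMEM (interval -0.25 to 0.24). Neat1 was the RNA with the unadjusted p under 0.05. It averaged 193 ± 80.6 CPM in KO cells in DMEM and 124 ± 29.2 CPM in WT cells in DMEM, overlapping, with a log2 fold change of 0.64 ± 0.25 (interval 0.11 to 1.17, adjusted p = 1.00), and 0.35 without KO library 2 in DMEM.

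The interaction asked whether the medium response differed between genotypes, that is, the change in KO cells minus the change in WT cells. None of the 8 passed, nor did any of the tested genes (0% called). At an unadjusted p under 0.05 (edgeR) there were 2255 genes (15.9%), 3 of them from the 8. DESeq2 called 225 genes, none of them from the 8. The fitted interaction was below 0 for all 8. Snhg8 had the smallest p of the 8, with an interaction of -0.54 ± 0.17 on the log2 scale (interval -0.90 to -0.19, adjusted p = 0.184). Gas5 had -0.22 ± 0.08 (adjusted p = 0.232) and Snhg1 had -0.38 ± 0.15 (adjusted p = 0.239). Neat1 had -0.69 ± 0.35 (adjusted p = 0.357) and Malat1 -0.02 ± 0.27 (adjusted p = 0.979). The larger count of falls in KO cells than in WT cells is therefore not shown to be a difference between genotypes.

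**Figure D2:**
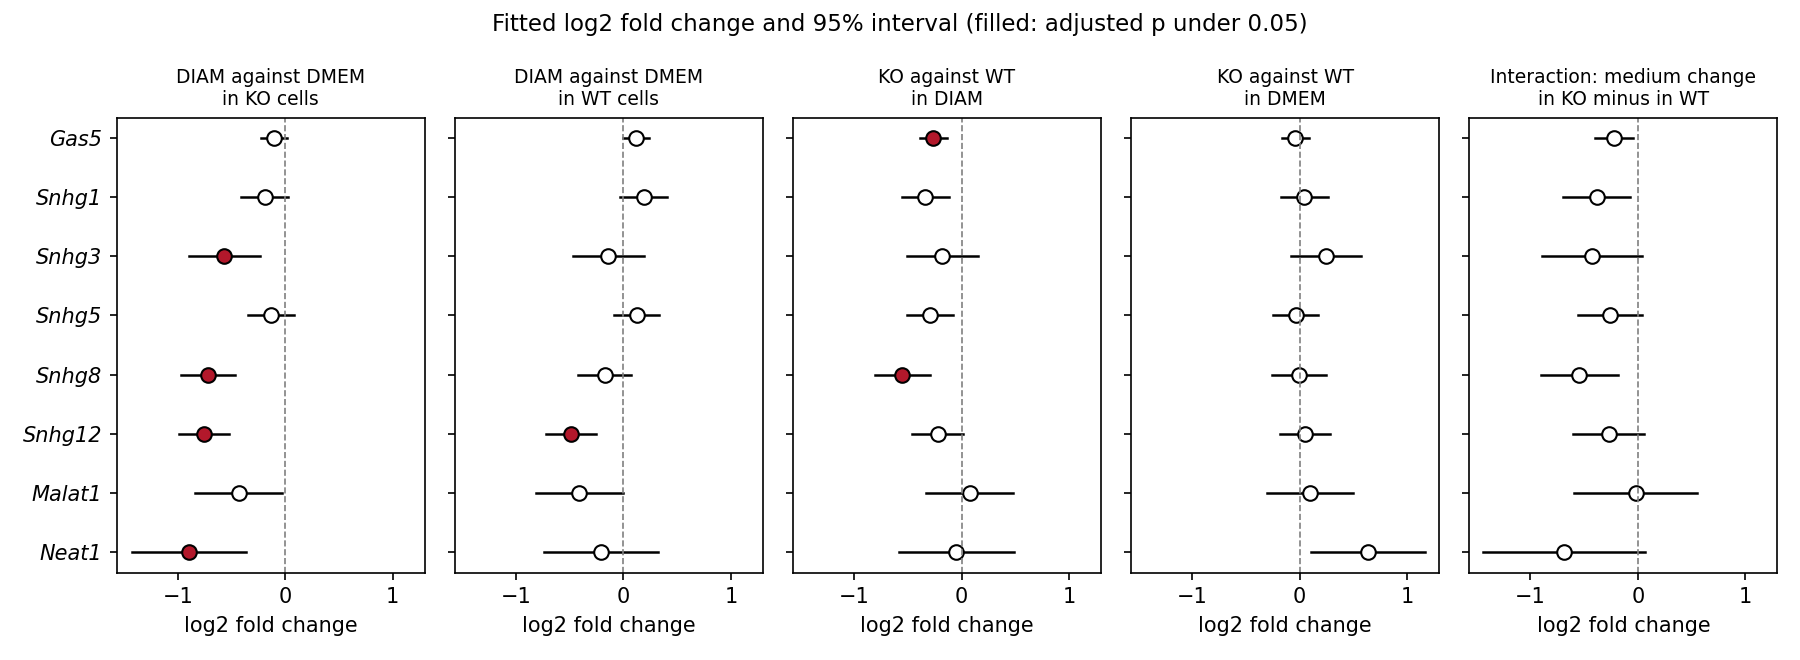
Fitted log2 fold change (horizontal axis) with its 95% interval for the 8 RNAs (rows) in the 4 comparisons and the interaction (columns). Filled points have an adjusted p under 0.05: Snhg3, Snhg8, Snhg12 and Neat1 for DIAM against DMEM in KO cells, Snhg12 in WT cells, Gas5 and Snhg8 for KO against WT in DIAM, and none in the last 2 columns.

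Markers of cell types and of the cell cycle also moved with the medium. The cell cycle markers summed to 170 to 186 CPM in KO libraries in DMEM and 182 to 199.6 CPM in WT libraries in DMEM, above the DIAM sums, and 8 of 8 fell in KO cells and 7 in WT cells. Of 10 smooth muscle markers 7 fell in each genotype, with 1 rise in KO cells. All 5 measured adipocyte markers rose in both genotypes, and 1 was higher in KO than in WT cells in DIAM. Of 8 fibroblast markers 5 rose and 3 fell in each genotype, and of 6 measured Schwann or glial markers 1 rose and 1 fell in KO cells, while 5 rose and 1 fell in WT cells. Of 8 endothelial markers 4 rose and 2 fell in KO cells and 3 rose and 1 fell in WT cells, and of 6 mesothelial markers 2 rose in each. The 1 measured erythroid marker, Alas2, rose in both, and 15 genes of the mitochondrial genome split into 10 higher and 1 lower in KO cells, and 9 higher and 1 lower in WT cells. The part of these shifts in the falls of Snhg12, Snhg8 and Snhg3 was not tested.

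Other noncoding hosts of snoRNAs were read from a list of 16 symbols, of which 14 rows passed the filter (Snhg4 has 2 rows). For DIAM against DMEM in KO cells, 8 of the 14 fell and 0 rose, with a median log2 fold change of -0.49, and in WT cells 3 fell and 0 rose, with a median of -0.05. Rian, the maternally expressed host of a large snoRNA cluster, was at 75.6 ± 3.83 CPM in KO cells in DIAM and 170 ± 14.6 CPM in KO cells in DMEM, a log2 fold change of -1.17 ± 0.08 (adjusted p = 7.61e-09), and fell by 0.74 in WT cells (adjusted p = 1.69e-06). Snhg18 fell by 1.05 in KO cells (adjusted p = 4.1e-07) and by 0.79 in WT cells (adjusted p = 1.16e-05). In KO against WT in DIAM 2 of the 14 fell, Rian (-0.32, adjusted p = 0.0342) and Snhg6 (-0.53, adjusted p = 0.0299), and 12 had a log2 fold change below 0. Both calls were lost without KO library 1 or 2 or WT library 1 or 2 in DIAM (adjusted p = 0.0722 to 0.141 for Rian and 0.0767 to 0.123 for Snhg6), that of Rian also without KO library 4 (0.0527) and that of Snhg6 also without KO library 3 (0.0526). In DMEM and in the interaction 0 were called, and the fitted interaction was below 0 for all 14.

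**Figure D3:**
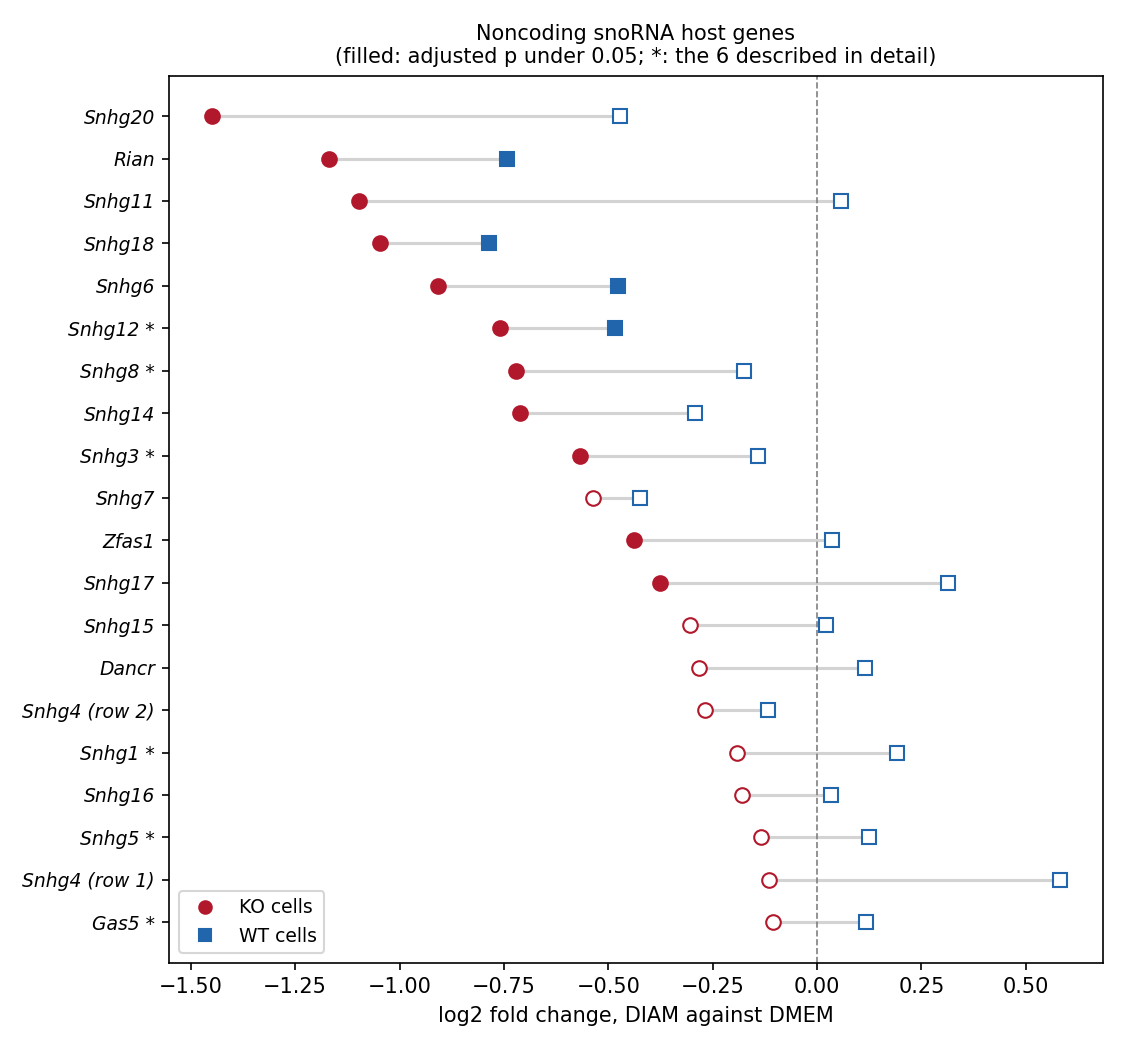
Log2 fold change for DIAM against DMEM (horizontal axis) of each noncoding snoRNA host above the filter (rows, ordered by the value in KO cells), in KO cells (circles) and WT cells (squares). Filled symbols have an adjusted p under 0.05 and asterisks mark the 6 hosts described in detail. All values in KO cells lie below 0, and in WT cells they lie on both sides, from -0.79 (Snhg18) to 0.58 (a row of Snhg4).

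Protein-coding hosts of snoRNAs, many of them genes of ribosomal proteins and translation factors, were read from a list of 30. A run of 4 or more C or T stood at the annotated start of 2 of the 21 windows found for them. For DIAM against DMEM in KO cells 3 of 30 rose and 10 fell (median log2 fold change -0.10), and in WT cells 9 rose and 3 fell (median 0.10). Hspa8, a constitutive chaperone, rose by 0.59 in KO cells and by 0.56 in WT cells (adjusted p = 1.34e-06 and 3.04e-06). Eif4a2, an RNA helicase of translation initiation, fell by 0.42 in KO cells and by 0.33 in WT cells (adjusted p = 7.97e-07 and 1.11e-05). In KO against WT in DIAM 2 of 30 fell, Rpl10 and Rps12, while 28 had a log2 fold change below 0, with a median of -0.18. Without KO library 2, WT library 1 or WT library 2 in DIAM neither was called (adjusted p = 0.0824 to 0.166 for Rpl10 and 0.0583 to 0.120 for Rps12). Rpl10 was also lost without KO library 3 (0.118), WT library 3 (0.0616) or WT library 4 (0.0658), and Rps12 without KO library 1 (0.0703) or WT library 4 (0.0533). None was called for KO against WT in DMEM or in the interaction, which was below 0 for 27 of the 30. The snoRNA rows of the table themselves, Snora73a, Snora73b, Snord15b, Snord17 and Scarna2, were at most 0.295 CPM in any library and were not tested, so whether host and snoRNA moved together cannot be read from these data.

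Proteins that bind snoRNAs or assemble the particles around them were counted next. Of 14, 3 rose and 1 fell in KO cells in DIAM against DMEM, and 5 rose and 3 fell in WT cells. Nolc1, a nucleolar chaperone of these particles, was at 54.3 ± 1.16 CPM in KO cells in DIAM and 37.4 ± 2.44 CPM in KO cells in DMEM, and rose by 0.54 (SE 0.05, adjusted p = 9.38e-08), and by 0.40 in WT cells (adjusted p = 3.59e-06). Ruvbl2, an ATPase of particle assembly, rose by 0.30 in KO cells (adjusted p = 0.00171) and by 0.24 in WT cells (adjusted p = 0.00757). No gene of this list was called between genotypes in either medium.

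Factors of nonsense-mediated decay, the pathway known to degrade spliced host RNAs, changed in both directions. In KO cells 7 of 14 rose and 2 fell in DIAM, and in WT cells 6 rose and 2 fell. Casc3, a part of the exon junction complex, rose by 0.36 in KO cells (adjusted p = 0.000238) and by 0.30 in WT cells (adjusted p = 0.00129). Magoh, another part of that complex, fell by 0.48 in KO cells (adjusted p = 8.56e-06) and by 0.26 in WT cells (adjusted p = 0.00248). In KO against WT in DIAM Magoh was lower, with a log2 fold change of -0.23 (adjusted p = 0.0397), and Smg6, an endonuclease of the pathway, was higher, with 0.17 (adjusted p = 0.0409). Both calls were lost without KO library 1, 2 or 3 or WT library 1 or 2 in DIAM (adjusted p = 0.0700 to 0.136 for Magoh over its lost calls and 0.0623 to 0.121 for Smg6), Magoh also without WT library 3 and Smg6 also without KO library 4.

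Proteins of the nuclear bodies of Neat1 and Malat1 followed. Of 13 paraspeckle proteins 2 rose and 5 fell in KO cells in DIAM, and 2 rose and 2 fell in WT cells. Hnrnph3 fell by 0.46 in KO cells (adjusted p = 0.000256) and by 0.31 in WT cells (adjusted p = 0.00662), and Tardbp, which binds RNA in several nuclear bodies, fell by 0.31 in KO cells (adjusted p = 0.000225) and by 0.17 in WT cells (adjusted p = 0.0193). Of 11 speckle and splicing factors 1 rose and 5 fell in KO cells, and 2 rose and 3 fell in WT cells. Srsf7 fell by 0.52 in KO cells (adjusted p = 3.22e-06) and by 0.38 in WT cells (adjusted p = 0.0001), and Srsf1 by 0.41 in KO cells (adjusted p = 5.74e-06) and 0.29 in WT cells (adjusted p = 0.000252). For KO against WT in DIAM 0 of the 13 and 0 of the 11 were called.

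The receptor that Gas5 is proposed to bind, and genes that it induces, were read from a list of 10. All 10 changed in both genotypes, 9 of them upward. Fkbp5, a chaperone partner that restrains the receptor, was at 606 ± 19.4 CPM in KO cells in DIAM and 20.9 ± 1.51 CPM in KO cells in DMEM, a rise of 4.85 ± 0.07 on the log2 scale (adjusted p = 9.33e-16), and it rose by 4.54 in WT cells (adjusted p = 2.08e-15). Sgk1, a kinase, and Tsc22d3, the glucocorticoid-induced leucine zipper gene, rose by 3.68 and 3.89 in KO cells and by 3.73 and 3.75 in WT cells. Nr3c1, the receptor gene, fell by 0.31 in KO cells (adjusted p = 0.00229) and by 0.54 in WT cells (adjusted p = 1.98e-05). Between genotypes in DIAM, Fkbp5 was higher in KO cells, at 606 ± 19.4 CPM against 506 ± 53.3 CPM in WT cells (log2 fold change 0.26 ± 0.07, adjusted p = 0.0341), in the same comparison in which Gas5 was lower. The other 9 were not called. Whether the Fkbp5 difference is tied to that of Gas5 was not tested. Between KO and WT cells in DIAM 9 of the 10 had a log2 fold change above 0, from -0.18 to 0.30 over the list with a median of 0.16, against 0.00 over all tested genes. An unadjusted p under 0.05 (edgeR) was seen for 5 of the 10, and for 3652 of all 14217 tested genes. Sgk1 had 0.00 ± 0.08 (adjusted p = 0.982), Tsc22d3 0.07 ± 0.08 (adjusted p = 0.649) and Nr3c1 0.17 ± 0.08 (adjusted p = 0.181). The Fkbp5 call was lost without KO library 1, 2 or 4 or WT library 1 or 2 in DIAM (adjusted p = 0.0522 to 0.104), with log2 fold changes of 0.20 to 0.31 over the 8 DIAM libraries left out in turn.

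Within DMEM, Neat1 and Malat1 followed Xist from library to library. Over the 8 DMEM libraries Pearson's r between Neat1 and Xist was 0.98 (exact permutation p = 2.48e-05, Benjamini-Hochberg adjusted 0.000273 over 11 relations computed) and Spearman's rho was 1.00 (exact permutation p = 4.96e-05, adjusted 0.000546), both p being the smallest that these permutations can give. Without the 2 libraries farthest from the median r was 0.97. Between Malat1 and Xist r was 0.89 (exact permutation p = 0.003, adjusted 0.0165) and rho 0.81 (exact p = 0.0218, adjusted 0.0479), and r was 0.76 without the 2 farthest libraries. Malat1 and Neat1 had an r of 0.79 (exact permutation p = 0.0171, adjusted 0.0471) and a rho of 0.81 (exact p = 0.0218, adjusted 0.0479), and r was 0.63 without the 2 farthest. The points share their library, and the libraries with high values were KO libraries 2, 3 and 4 and WT libraries 2 and 4. In DIAM, where the 3 RNAs spread less, r was 0.61 for Neat1 and Xist (exact permutation p = 0.104, adjusted 0.135), with a rho of 0.60 (exact p = 0.132, adjusted 0.182), -0.26 for Malat1 and Xist (exact p = 0.525, adjusted 0.578), with a rho of -0.14 (exact p = 0.752, adjusted 0.827), and -0.61 for Malat1 and Neat1 (exact p = 0.110, adjusted 0.135), with a rho of -0.07 (exact p = 0.882, adjusted 0.882). Without the 2 farthest libraries these r were 0.75, -0.05 and 0.10, so the relations of Malat1 in DIAM rest on the libraries left out. All these r pool both genotypes. Within genotypes, with no test, r for Neat1 and Xist in DIAM was 0.89 in KO cells and 0.78 in WT cells. For Malat1 and Xist it was -0.53 and 0.17, and for Malat1 and Neat1 -0.68 and -0.22. In DMEM the same 3 relations had 0.99 and 0.98, 0.99 and 0.98, and 0.97 and 0.94.

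Xist itself was at 113 ± 8.19 CPM in KO cells in DIAM, 130 ± 20.4 CPM in WT cells in DIAM, 224 ± 82.8 CPM in KO cells in DMEM and 159 ± 44.4 CPM in WT cells in DMEM (SD, n = 4 each). It fell by 0.99 ± 0.24 on the log2 scale in KO cells in DIAM against DMEM (adjusted p = 0.00254), beside the fall of Neat1, and did not pass the test in WT cells (-0.29 ± 0.24, adjusted p = 0.332). The part of what moves Xist in the Neat1 fall was not tested. Leukocyte markers also moved with the medium in KO cells, where 5 of 8 fell, against 1 up and 1 down in WT cells. Their summed level was 1052 to 1385 CPM in KO cells in DIAM, 824 to 1429 CPM in WT cells in DIAM, 1072 to 2306 CPM in KO cells in DMEM and 809 to 1755 CPM in WT cells in DMEM, with 0 of the 8 at 0 in any group. Ptprc, the pan-leukocyte surface phosphatase, was at 6.94 ± 1.16 CPM in KO cells in DIAM and 14.2 ± 5.76 CPM in KO cells in DMEM. Their part in the Neat1 and Malat1 values was not tested.

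**Figure D4:**
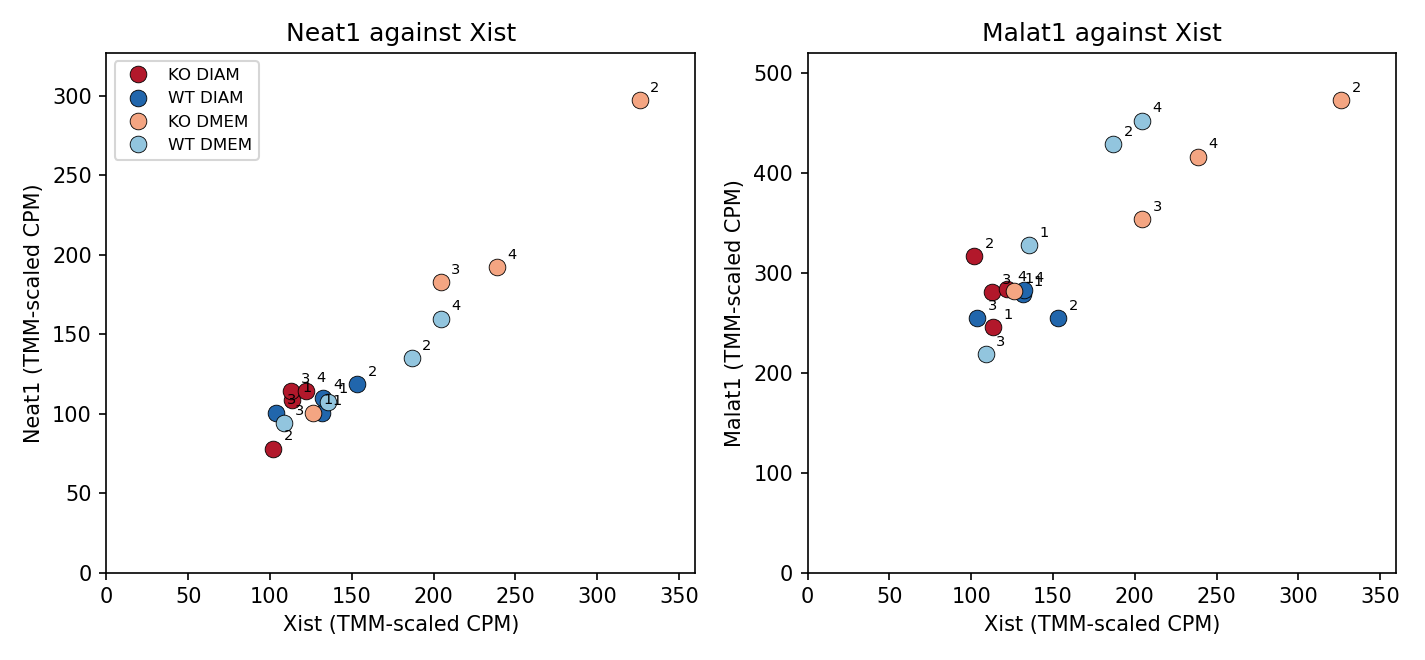
Neat1 (left) and Malat1 (right) against Xist in the 16 libraries, all in TMM-scaled CPM. Colours mark the groups and numbers the libraries. KO library 2 in DMEM is the highest for all 3 RNAs (Neat1 297 CPM, Xist 326 CPM), and the DIAM libraries gather at 77.9 to 118 CPM of Neat1.

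Gas5 was also set against the other hosts in DMEM, where Snhg12 was the one that passed by both r and rho. The r of Gas5 over the 8 DMEM libraries was 0.83 with Snhg12 (exact permutation p = 0.00486, adjusted 0.0178), and rho was 0.86 (exact p = 0.0107, adjusted 0.0479). It was 0.76 with Snhg1, 0.75 with Snhg5 and 0.76 with Snhg8 (exact permutation p = 0.0321, 0.0276 and 0.0296, adjusted 0.0505 each), with rho of 0.69, 0.83 and 0.62 (exact p = 0.0694, 0.0154 and 0.115, adjusted 0.127, 0.0479 and 0.181), and 0.06 with Snhg3 (exact p = 0.894, adjusted 0.894), with a rho of 0.21 (exact p = 0.619, adjusted 0.757). KO library 3 and WT library 1 were farthest from the Gas5 median. Without them r was 0.67 with Snhg12, 0.71 with Snhg1, 0.79 with Snhg5, 0.27 with Snhg8 and 0.30 with Snhg3, so the relation with Snhg8 rests on those libraries.

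Over all 16 libraries the genes most like each RNA were taken by Pearson's r of log2 CPM among 10590 genes, as a description with no test, since group differences enter the values. For Gas5 they were Rps9, a ribosomal protein gene (r = 0.91), Ammecr1 (0.90) and Rap2b (0.88). For Malat1 they were Xist (0.85), Fmnl1 (0.84), a formin of blood cells, and Vav1 (0.84), a signalling protein of blood cells. For Neat1 they were the RNA helicase Ddx17 (0.97), Pnisr (0.95), a nuclear protein rich in serine and arginine, and Xist (0.95). Rps9 was at 534 ± 28.5 CPM in KO cells in DIAM, 632 ± 61.5 CPM in WT cells in DIAM, 580 ± 35.8 CPM in KO cells in DMEM and 576 ± 65.0 CPM in WT cells in DMEM, with the same lowest and highest group as Gas5. As Rps9 was picked by its r with Gas5 in these libraries, this is no separate result.

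Genes beside these loci were read for comparison. Zbtb37, which overlaps Gas5 on the other strand, was at 19.3 ± 0.75 CPM in KO cells in DIAM, 18.9 ± 2.61 CPM in WT cells in DIAM, 18.6 ± 4.34 CPM in KO cells in DMEM and 19.7 ± 3.76 CPM in WT cells in DMEM, with no call in any comparison. Slc3a2, an amino acid transporter chain next to Snhg1 on the opposite strand, rose in DIAM by 0.41 in KO cells (adjusted p = 4.12e-06) and by 0.45 in WT cells (adjusted p = 1.66e-06), while Snhg1 had -0.19 in KO cells and 0.19 in WT cells. Ndst3, a heparan sulfate enzyme, lies before the start of Snhg8 on the same strand, the minus strand. It was at 0.642 ± 0.275 CPM in KO cells in DIAM and 1.75 ± 0.873 CPM in WT cells in DIAM, a log2 fold change of -1.45 ± 0.43 (adjusted p = 0.0475). This call was lost without KO library 1, 2 or 4 or WT library 1 or 2 in DIAM (adjusted p = 0.0619 to 0.193). In DIAM against DMEM Ndst3 rose by 1.44 in WT cells (adjusted p = 0.00871) and had -0.36 in KO cells (adjusted p = 0.495). Phactr4, before the start of Snhg3 on the same strand, rose by 1.08 in KO cells (adjusted p = 7.88e-08) and by 0.84 in WT cells. Trnau1ap, a factor of selenocysteine incorporation next to Snhg12 on the opposite strand, fell by 0.37 in KO cells (adjusted p = 0.00448), against -0.09 in WT cells (adjusted p = 0.468). Frmd8, before the start of Neat1 on the same strand, rose by 0.43 in KO cells (adjusted p = 6.43e-05) and by 0.58 in WT cells (adjusted p = 2.87e-06), opposite in sign to Neat1.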

How the data were processed

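RNA depleted of ribosomal RNA from cultured aortic smooth muscle cells was sequenced as 16 libraries without strand information, per the labels' protocols. The submitters' processing notes name FastQC, Salmon 1.9.0, R 4.4.2, DESeq2 1.46.0 and the GRCm39 build, with settings not given in the sources used here. The deposited library columns are called TPM in the labels, but they sum to between about 37221200 and 47626300 per library, so they were treated as estimated counts deposited by the authors and rounded to whole numbers. Of 42645 values between 0.5 and 5.5, 50.6% lie within 0.1 of a whole number. The authors' deposited table also gives log2 fold changes and p-values of 4 comparisons, used only where named, and a mean normalized signal of the authors that was not used.

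Genes with at least 1 CPM in at least 4 libraries were kept (14217 of 20581 genes, at least 99.8% of counts) and TMM-scaled. edgeR 4.0.16 in R 4.3.3 fitted 1 robust quasi-likelihood model over the 4 groups, with two-sided tests and Benjamini-Hochberg adjustment over all tested genes, called at an adjusted p under 0.05. Standard errors and 95% intervals are Wald values, and the fit was tested on simulated data. Alternatives were DESeq2 1.42.0, limma 3.58.1, other scalings and filters, a model of only the compared groups, a replicate block and each library left out. Correlations used exact two-sided permutations (scipy 1.17.1).

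All 8 RNAs are named. From each list the 2 genes of smallest p for the medium were eligible to be named, with Nr3c1, Fkbp5, Tsc22d3, Sgk1, the neighbours of the loci and the 3 genes most like Gas5, Malat1 and Neat1. Acta2, Sox10, Rpl10, Rps12, Smg6, Snhg6 and Kcnq1ot1 fall outside this rule, being picked once their values were known. The RNAs and lists were chosen with earlier results of these data known.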

Additional observations from a re-analysis of the deposited data

Results flagged for a closer look

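Neat1 in KO library 2 in DIAM, at 77.9 CPM, lay apart from the other 3 KO libraries in DIAM, which were at 108 to 114 CPM. Its gap to the nearest of them was 0.839 of the range of the group. Of 32 groups of 4 libraries checked, 1 was marked in this way, and chance marks about 1 in 20. Without this library the log2 fold change of Neat1 for DIAM against DMEM in KO cells was -0.78 (adjusted p = 0.0233, edgeR).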

How the results depend on the processing

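No value of the 8 RNAs changed direction past the threshold under any alternative run. For DIAM against DMEM in WT cells, 1 RNA was called, against 2 with limma after quantile normalization, 2 with DESeq2 and 1 to 3 with each library left out. For KO against WT in DIAM, 1191 genes were called, against 1873 with DESeq2, 1810 in the authors' deposited table, 0 in the model of only those groups and 178 to 1480 with each library left out, the low counts being 178 without KO library 2, 275 without KO library 1, 299 without WT library 1 and 316 without WT library 2, all in DIAM. The 2 RNAs called there became 0 in the model of only those groups and 0 to 3 with each library left out. For KO against WT in DMEM, 0 genes became 1 with DESeq2, 2 in the authors' deposited table and 0 to 2 with each library left out (2 without KO library 1 in DMEM, 1 without WT library 3 in DIAM). For the interaction, 0 genes became 225 with DESeq2, 234 in the authors' deposited table and 0 to 1 with each library left out (1 without KO library 1 in DMEM). The causes were not tested.

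The replicate numbers were not taken as pairs, since not every library correlated best with its own number. Same-numbered deviations correlated at 0.01 to 0.32 between media in KO cells and -0.09 to 0.27 in WT cells. Mean correlations with other numbers were -0.09 to -0.02 in KO cells and -0.08 to 0.02 in WT cells. They were the lower ones for each library except WT library 2. Between media, KO libraries 1 and 4 and WT libraries 1, 3 and 4 correlated best with their own number. Same-numbered deviations correlated at -0.20 to -0.04 between genotypes in DIAM and -0.22 to 0.17 in DMEM. Whether the numbers are pairs between media is thus not settled. With the replicate block, Malat1 in KO cells (-0.42, adjusted p = 0.0359) and Snhg1 for KO against WT in DIAM (-0.34, adjusted p = 0.0457) passed, and 1191 genes were called for KO against WT in DIAM. Snhg1 in that comparison also passed with DESeq2 (0.0287), limma on log2(CPM + 1) (0.0466), without WT library 4 in DIAM (0.0498) and without WT library 1 in DMEM (0.0160). Malat1 in KO cells also passed with DESeq2 (0.0337), limma after quantile normalization (0.0438) and the model of only the compared groups (0.0338). That model also called Snhg1 in KO cells (0.0474). Gas5 in KO cells passed with limma after quantile normalization (-0.20, adjusted p = 0.0156). In WT cells the RNA added by DESeq2 was Malat1 (0.0439), and the one added by limma after quantile normalization was Snhg8 (0.0424). Snhg3, with 97.5 counts in its lowest library, is limited most by depth and was not tested under the filter of 5 CPM.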

Other observations

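Other long noncoding RNAs were read from a list of 12, of which 10 passed the filter. For DIAM against DMEM, 2 rose and 3 fell in KO cells, 1 rose and 2 fell in WT cells, and 0 were called for KO against WT in either medium or in the interaction. Meg3, a maternally expressed imprinted RNA, was at 21.9 ± 6.10 CPM in KO cells in DIAM and 158 ± 63.9 CPM in KO cells in DMEM (SD, n = 4 each), a log2 fold change of -2.85 ± 0.29 (edgeR adjusted p = 1.65e-06), and it fell by 1.53 in WT cells (adjusted p = 0.000488). Kcnq1ot1, a paternally expressed imprinted RNA, rose by 2.33 in KO cells (adjusted p = 0.000603) and by 1.56 in WT cells (adjusted p = 0.0111). Norad fell by 0.17 in KO cells (adjusted p = 0.00824) and by 0.30 in WT cells (adjusted p = 0.000123).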
